A study of Mus musculus with 18 samples.

Results

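The genes described here encode the nuclear-encoded subunits of the mitochondrial respiratory chain, with ATP synthase, cytochrome c and a few assembly factors. They were taken from the deposited table as all probe sets with exactly 1 gene symbol that starts with Nduf, Cox4, Cox5, Cox6, Cox7, Cox8, Uqcr or Atp5, that is Sdha, Sdhb, Sdhc or Sdhd, or that is Cyc1 or Cycs. This gave 86 of 12393 genes and 160 of 22626 probe sets, and each gene was read from its brightest probe set over the 18 arrays. Of the 86 genes, 33 encode subunits of complex I, 4 of complex II, 9 of complex III, 16 of complex IV and 17 of complex V, 1 is cytochrome c and 6 act in assembly. Symbols such as Ndufb4, Ndufs6 and Ndufa11 occurred on probe sets shared with other genes alone and were not analysed here.

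RNA came from whole testes of male hypogonadal (hpg) mice, treated at 10 weeks of age; these animals make no gonadotrophin-releasing hormone, so their follicle-stimulating hormone (FSH) is very low. Treated mice received 8 IU of recombinant FSH (rFSH, Gonal F) subcutaneously in 0.2 ml of phosphate-buffered saline, repeated every 12 h over 12 h (4 arrays), 24 h (3 arrays) or 72 h (4 arrays), and 7 arrays were of untreated hpg males of that age. RNA was measured on Affymetrix MOE430A arrays and values are log2. The labels do not say whether an array holds 1 animal or a pool, so p-values measure the spread between these arrays. The controls are labelled untreated, so the injections and the hormone cannot be told apart.

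The respiratory chain passes electrons from NADH through complex I, or from succinate through complex II, to coenzyme Q, then through complex III and the mobile carrier cytochrome c to complex IV, which reduces oxygen. Complexes I, III and IV pump protons, and complex V, the ATP synthase, uses the gradient to make ATP. In the testis, FSH acts through its receptor on Sertoli cells, which raises cyclic AMP and alters the cells' metabolism, while germ cells carry their own forms of several chain proteins.

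The arrays fell into 2 sets. The 12 h and 72 h arrays and control replicates 4 to 7 had Dap spike-in readings of 8.05 to 8.86 and 18S rRNA readings of 3.35 to 3.70, whereas the 24 h arrays and control replicates 1 to 3 had 2.70 to 3.41 and 9.07 to 11.69. Each time was therefore compared with the controls of its own set, in 1 limma fit over all 18 arrays, and called at an adjusted p below 0.05 over the 22626 probe sets. Within the smaller set the Dap reading was 3.05 to 3.41 at 24 h and 2.70 to 2.87 in control replicates 1 to 3. These ranges did not overlap, and the part of this difference in the 24 h result was not tested. Control replicate 6 stood apart: the mean of 8 spermatid markers, among them Prm1 and Tnp1, was 10.43 in it and 2.70 to 3.43 in the other 17 arrays, and the total numbers of members called at 12 h, at 72 h and between the control sets are also given without it.

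Cytochrome c and a minority of subunits rose within 12 h, and nearly all called members rose rather than fell. At 12 h, 13 of 86 members were called higher and 1 lower, against 3.2% and 2.16% of all probe sets tested. At 24 h, 23 were higher and 1 lower, against 6.1% and 7.26%, and at 72 h 11 were higher and 0 lower, against 3.63% and 2.5%. The single lower member at 12 h and at 24 h was Cox7a2l. With the 6 arrays of the 24 h comparison fitted alone, 3 members (Cycs, Ndufb8 and Sdhb) were called higher. The GAPDH 3 prime minus 5 prime reading, a sign of RNA quality, was -0.63 to -0.50 at 24 h and -0.43 to -0.16 in control replicates 1 to 3, without overlap, while the actin reading was 0.82 to 1.08 and 0.90 to 1.10; their part in the 24 h result was not tested. Without control replicate 6, 10 members were called higher at 12 h and 10 at 72 h. As a whole-tissue measurement, a lower or higher value cannot tell fewer or more cells of a type from less or more RNA per cell.

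The rise was small for most members. The median difference over the 86 members was 0.19 at 12 h, 0.24 at 24 h and 0.18 at 72 h on the log2 scale, and 69, 63 and 71 members lay above 0. Over all probe sets the medians were 0.00, 0.04 and 0.01. Members were mostly bright, 81 with a mean of at least 5, so the closer background was the 6506 genes whose brightest probe set reached that level: their medians were -0.03, -0.10 and -0.02, and 5.92%, 6.33% and 7.07% were called higher, against 15.1%, 26.7% and 12.8% of the members. Every treated array lay above every same-set control for 26 members at 12 h, 35 at 24 h and 22 at 72 h, while 5.71%, 25.8% and 6.91% of all probe sets did so. By limma at 72 h, 0 members also had an unadjusted p below 0.05 for a fall, against 7.9% of all probe sets. In all, 30 members were called at some time and 56 at none.

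**Figure D1:**
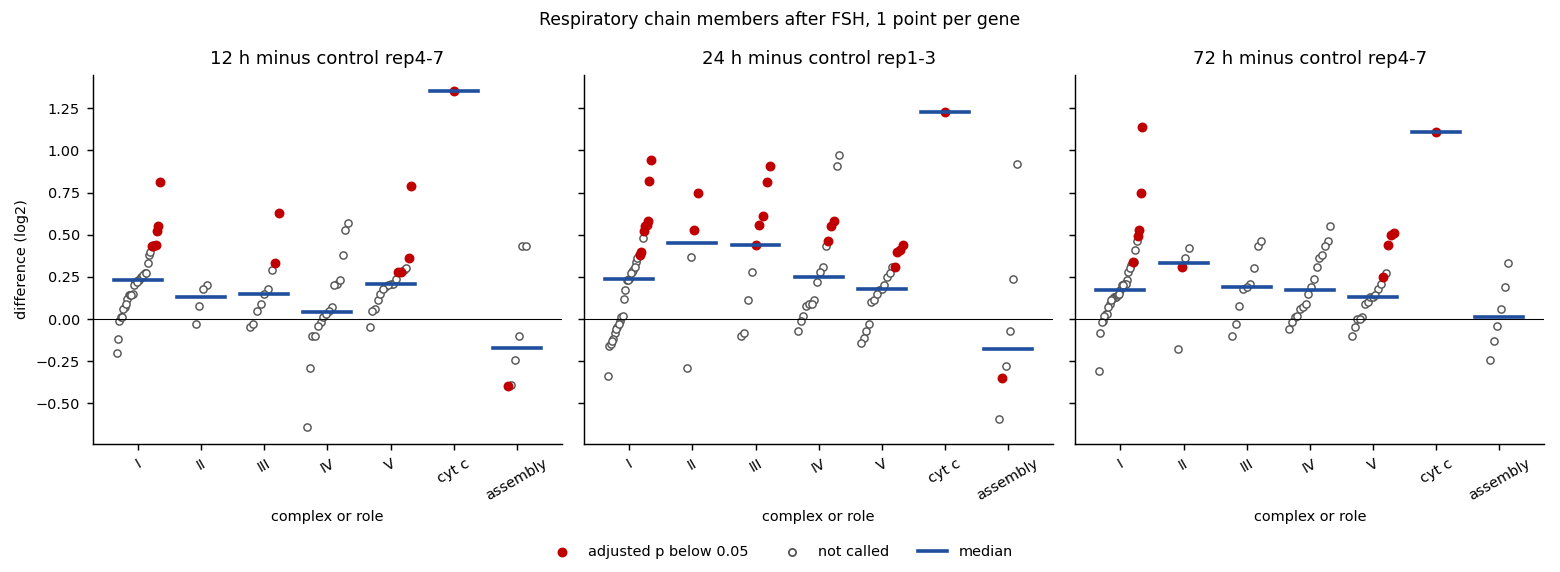
Difference in log2 value from the controls of the same array set at 12, 24 and 72 h for each of the 86 members, by complex or role; red points passed an adjusted p below 0.05 and blue lines mark the median of the group. Cytochrome c (cyt c) is the highest point at 12 h and 24 h, and called members lie above 0 except Cox7a2l in the assembly column.

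Cytochrome c, the soluble carrier between complexes III and IV and a trigger of apoptosis when it leaves the mitochondrion, had the largest difference of the 86 members at 12 h and 24 h and, after Ndufv3, the next largest at 72 h. Cycs read 13.31, 13.15, 12.94 and 13.15 at 12 h and 12.80, 12.77, 13.05 and 12.99 at 72 h, against 11.97, 11.90, 11.45 and 11.83 in control replicates 4 to 7. At 24 h it read 13.32, 13.19 and 13.03, against 12.01, 11.90 and 11.93 in control replicates 1 to 3. All 11 treated arrays lay above all 7 controls. The differences were 1.35 ± 0.11 (SE; 2.55-fold, limma adjusted p = 4.83e-06) at 12 h, 1.23 ± 0.13 (2.35-fold, adjusted p = 3.19e-05) at 24 h and 1.11 ± 0.11 (2.16-fold, adjusted p = 3.23e-05) at 72 h. The other probe sets of Cycs gave 1.31 and 1.40, 1.29 and 1.5, and 1.31 and 1.60 at the successive times, each called. The call held when any single array was left out. The probe sets could also read near-identical copies of Cycs, and how far they do was not tested.

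Members called higher at all 3 times were Cycs, Ndufa6, Ndufv3, Atp5g1 and Atp5h, and the regions before their starts are shown because FSH signals through cyclic AMP and because nuclear respiratory factor 1 and ETS-family factors are known to bind promoters of this gene class. The sequences are from the RefSeq promoter table (build GRCm38.p6), 250 bases before the start on the gene's strand, with capitals on letters of the full cyclic AMP response element (TGACGTCA), its shorter core (ACGTCA, which the full element contains), the nuclear respiratory factor 1 core (GCATGCGC) and an ETS core (CCGGAAG), searched on both strands. The windows are chr6:50566570-50566819 for Cycs, chr15:82354292-82354541 for Ndufa6, chr11:96075632-96075881 for Atp5g1 and chr11:115419920-115420169 for Atp5h, each on the minus strand, and chr17:31519865-31520114 for Ndufv3 on the plus strand.
Cycs: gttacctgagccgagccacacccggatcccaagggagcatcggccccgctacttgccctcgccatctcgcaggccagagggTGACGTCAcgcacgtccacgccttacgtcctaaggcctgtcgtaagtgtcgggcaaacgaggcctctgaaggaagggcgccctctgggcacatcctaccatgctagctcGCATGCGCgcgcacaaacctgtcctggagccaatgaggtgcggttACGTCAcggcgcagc
Ndufa6: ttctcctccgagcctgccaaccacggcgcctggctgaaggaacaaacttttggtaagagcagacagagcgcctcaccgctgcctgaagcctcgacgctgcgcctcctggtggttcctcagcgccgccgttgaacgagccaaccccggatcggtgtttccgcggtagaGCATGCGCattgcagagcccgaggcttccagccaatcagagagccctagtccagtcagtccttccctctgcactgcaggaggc
Ndufv3: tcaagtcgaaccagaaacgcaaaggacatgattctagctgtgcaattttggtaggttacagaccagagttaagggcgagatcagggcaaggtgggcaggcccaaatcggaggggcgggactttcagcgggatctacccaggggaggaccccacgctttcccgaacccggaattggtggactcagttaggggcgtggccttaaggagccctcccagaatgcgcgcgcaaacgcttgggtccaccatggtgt
Atp5g1: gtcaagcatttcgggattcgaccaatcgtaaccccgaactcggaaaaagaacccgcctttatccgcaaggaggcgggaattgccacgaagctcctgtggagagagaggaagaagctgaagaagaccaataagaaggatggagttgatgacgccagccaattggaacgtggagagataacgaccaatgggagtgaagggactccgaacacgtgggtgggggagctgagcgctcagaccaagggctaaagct
Atp5h: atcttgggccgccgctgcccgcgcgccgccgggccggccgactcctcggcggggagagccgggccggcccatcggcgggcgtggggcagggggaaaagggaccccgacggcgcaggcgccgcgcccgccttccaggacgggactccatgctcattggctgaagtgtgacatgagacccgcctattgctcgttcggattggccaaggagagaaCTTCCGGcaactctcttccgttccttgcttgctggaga

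In the Cycs window the full cyclic AMP element began 169 bases before the start, the nuclear respiratory factor 1 letters 60 bases before it and a further short core 15 bases before it. Ndufa6 held the nuclear respiratory factor 1 letters 83 bases before its start, and Atp5h an ETS core on the opposite strand at 38. The windows of Ndufv3 and Atp5g1 held none of these letters. Of the 86 members, 71 had an entry in the table. Among these, 9 (12.7%) held the nuclear respiratory factor 1 letters, 4 (5.63%) the full cyclic AMP element, 9 (12.7%) the short core and 13 (18.3%) the ETS core, against 2.26%, 1.55%, 6.47% and 6.91% of all 32851 windows of the same length. Members were counted by gene, with any window that matched, and the background by window over all entries, so the units differ. The 4 members with the full element were Cycs, Ndufa10, Ndufb2 and Uqcrfs1. In the same order of motifs, 7 of 9, 3 of 4, 3 of 9 and 5 of 13 were called at some time. Of all 86 members 30 were, and a link between motifs and calls was not tested. A match of letters is a description of the sequence and does not show binding.

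Complex I, the NADH dehydrogenase, had 6 of 33 subunits called higher at 12 h, 8 at 24 h and 5 at 72 h. Bright genes were called higher in 5.92%, 6.33% and 7.07% of cases at these times. The medians of complex I were 0.23, 0.24 and 0.17. Ndufa6, an accessory subunit of the matrix arm, read 9.54, 9.31, 9.57 and 9.46 at 12 h, 9.54, 9.29 and 9.27 at 24 h, and later, at 72 h, 9.12, 9.24, 9.19 and 9.09. Its controls read 8.43, 8.73, 8.88 and 8.63 in replicates 4 to 7 and 8.67, 8.80 and 8.95 in replicates 1 to 3. No treated array overlapped the controls. The difference was 0.81 ± 0.10 (SE; limma adjusted p = 0.000116) at 12 h, 0.56 ± 0.11 (adjusted p = 0.00453) at 24 h and 0.49 ± 0.10 (adjusted p = 0.00577) at 72 h, and it held at every time without any single array.

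Ndufv3, an accessory subunit beside the NADH-binding flavoprotein, had its lowest treated values at 12 h. It read 9.72, 9.42, 9.16 and 9.13 at 12 h and 9.97, 10.08, 9.89 and 9.94 at 72 h, against 8.60, 8.92, 9.06 and 8.75 in control replicates 4 to 7. At 24 h it read 9.81, 9.69 and 9.92, against 8.61, 8.93 and 9.07. The groups did not overlap at any time, though the lowest 12 h array lay close to the highest control. The differences were 0.52 ± 0.13 (SE; limma adjusted p = 0.0357), 0.94 ± 0.16 (adjusted p = 0.00141) and 1.14 ± 0.13 (adjusted p = 0.000142) at the successive times. The 12 h call was lost without 12 h replicate 1 (adjusted p = 0.0909) or 2 (0.084) or control replicate 4 (0.108), 5 (0.051) or 7 (0.0974).

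Other complex I subunits were called at 1 or 2 times. Ndufa3 was higher by 0.58 at 24 h and 0.53 at 72 h, with 12.27, 12.36, 12.16 and 12.16 at 72 h against 11.62, 11.69, 11.83 and 11.70 in the controls. Ndufa8 was higher at 72 h by 0.75 ± 0.12 (SE; limma adjusted p = 0.00155). Ndufb7 and Ndufb8 were each higher by 0.43 at 12 h, and at 24 h by 0.38 and 0.82. Ndufv2, which carries an iron-sulphur cluster of the NADH-binding module, was higher at 24 h by 0.52 ± 0.11 (adjusted p = 0.0086). Of the Ndufb7 and Ndufb8 calls, that of Ndufb7 at 24 h was lost without 24 h replicate 3 (adjusted p = 0.0719) or control replicate 1 (0.0624) or 2 (0.0616), and those of Ndufa3, Ndufa8 and Ndufv2 held without any single array. Against all 7 controls Ndufb7 differed at 24 h by 0.11 (adjusted p = 0.554). With the replicate number as a block, 24 h calls were gained for Ndufa8 (0.38, limma adjusted p = 0.0269) and Ndufb9 (0.29, adjusted p = 0.0314).

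The weakest complex I calls lost their place when single arrays were left out. Ndufb2 was called at 12 h (0.44) and 24 h (0.40), Ndufb6 at 12 h (0.55), Ndufa12 at 24 h (0.55) and Ndufa10 at 72 h (0.34), and each call was lost in 4 or more of the single-array omissions. The adjusted p without an array reached 0.0866 for Ndufb2 at 12 h without control replicate 7 and 0.165 at 24 h without 24 h replicate 2, and with the replicate number as a block the 24 h value of Ndufb2 was 0.077. Against all 7 controls Ndufb2 differed at 24 h by 0.06 (adjusted p = 0.822). It reached 0.0985 for Ndufb6 without 12 h replicate 1, 0.186 for Ndufa12 without control replicate 1 and 0.144 for Ndufa10 without 72 h replicate 2.

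Most core subunits of complex I, those that carry its flavin or iron-sulphur clusters or bind quinone, did not pass the test. Ndufs1 differed by 0.01, -0.06 and 0.03 at 12, 24 and 72 h, Ndufs3 by 0.01, 0.17 and 0.07, and Ndufv1, which binds NADH, by -0.12, -0.03 and -0.02, with SE of 0.09 to 0.11. Ndufs8 differed by 0.27 ± 0.07 at 12 h (SE; limma adjusted p = 0.0501), and Ndufs7 by 0.22, -0.34 and 0.02, with SE of 0.12 to 0.14. The lowest values of the complex were those of Ndufb1 at 12 h (-0.20 ± 0.20) and 72 h (-0.31 ± 0.20) and of Ndufs7 at 24 h, and none was called.

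**Figure D2:**
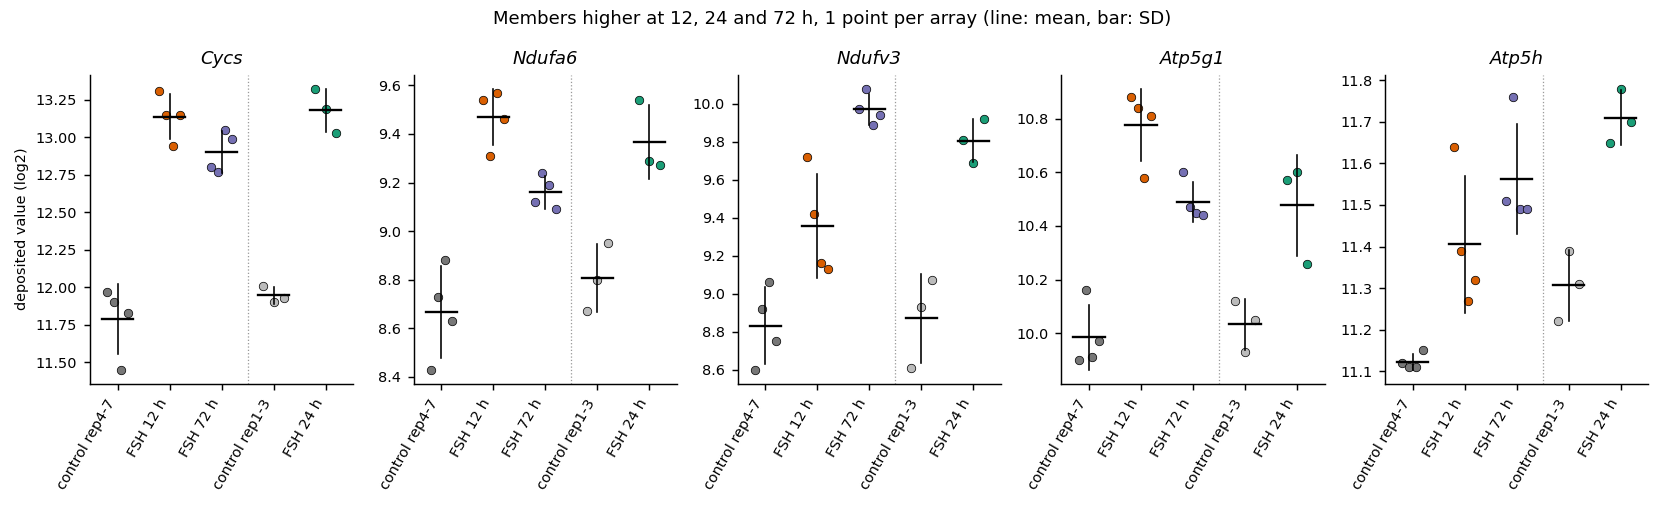
Deposited log2 values of the 5 members called higher at every time, with 1 point per array, the group mean as a line and its SD as a bar; the dotted line separates the array sets. Every treated point lies above every control of its own set, with Cycs at 12.77 to 13.32 on treated arrays and 11.45 to 12.01 in controls.

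Complex II, succinate dehydrogenase, also works in the tricarboxylic acid cycle, and its iron-sulphur subunit gene Sdhb stood out. Sdhb read 11.00, 11.01 and 11.17 at 24 h against 10.16, 10.44 and 10.33 in control replicates 1 to 3, a difference of 0.75 ± 0.09 (SE; limma adjusted p = 0.000124) that held without any single array. At 72 h the difference was 0.31 ± 0.08 (adjusted p = 0.0286), lost without 72 h replicate 2 (adjusted p = 0.0934) or 3 (0.0677) or control replicate 4 (0.0579), 5 (0.0839) or 7 (0.0821). At 12 h it was 0.20 ± 0.08 (adjusted p = 0.209). Sdhc, a membrane anchor, was higher at 24 h by 0.53 ± 0.12 (adjusted p = 0.0117) but by 0.28 (adjusted p = 0.128) against all 7 controls. Sdhd, the other anchor, differed by 0.18, 0.37 and 0.42, with an adjusted p of 0.0504 at 72 h and of 0.0108 at 24 h with the replicate block, and Sdha, the flavoprotein, by -0.03, -0.29 and -0.18, with no call.

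Complex III, which hands electrons from ubiquinol to cytochrome c, had 2 of 9 subunits called higher at 12 h, 5 at 24 h and 0 at 72 h by limma. At 72 h, 4 had an unadjusted p below 0.05 for a rise, against 8.62% of all probe sets. The shares of bright genes called higher were 5.92%, 6.33% and 7.07% at these times. Uqcrq, a small subunit near the quinone site, read 9.66, 9.62, 9.42 and 9.67 at 12 h against 8.99, 8.70, 9.04 and 9.13, and 9.53, 9.41 and 9.93 at 24 h against 8.31, 8.81 and 9.02. Its differences were 0.63 ± 0.14 (SE; limma adjusted p = 0.0186), 0.91 ± 0.17 (adjusted p = 0.0027) and 0.46 ± 0.14 (adjusted p = 0.0843) at the successive times. The 12 h call was lost without 12 h replicate 4 (adjusted p = 0.0579) or control replicate 5 (0.0549). Cyc1, the membrane-bound cytochrome c1, was higher by 0.33 at 12 h (adjusted p = 0.0458), a call lost without 7 of 8 arrays in turn (adjusted p of up to 0.131, without control replicate 4), and by 0.44 ± 0.10 at 24 h (adjusted p = 0.0138).

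The other calls of complex III were at 24 h. Uqcrc1, a core subunit, was higher by 0.61 ± 0.13 (SE; limma adjusted p = 0.00646), Uqcr10 by 0.81 ± 0.18 (adjusted p = 0.0094) and Uqcrb by 0.56 ± 0.14 (adjusted p = 0.0203). A dimmer probe set of Uqcrb gave -0.17 (adjusted p = 0.597), so its probe sets disagreed in direction. Against all 7 controls Uqcrc1 differed by 0.37 (adjusted p = 0.0563) and Uqcrb by 0.23 (adjusted p = 0.321). Uqcr10 lost its call without control replicate 1 (adjusted p = 0.0514), and Uqcrb without 24 h replicate 3 (0.0552) or control replicate 1 (0.0605) or 2 (0.0646). Uqcrc2, the other core subunit, differed by -0.05, -0.10 and 0.08, and Uqcrfs1, the Rieske iron-sulphur protein, by 0.05, 0.28 and 0.19, with no call.

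Complex IV, cytochrome c oxidase, had 0 of 16 subunits called by limma at both 12 h and 72 h, against 3 at 24 h. An unadjusted p below 0.05 for a rise was found for 4, 4 and 7 subunits at 12, 72 and 24 h. Of all probe sets, 7.94%, 8.62% and 18.2% had such a p at these times. Among the bright genes, 5.92%, 7.07% and 6.33% were called higher at 12, 72 and 24 h. With each array centred on its median, 3 were called higher at 12 h (Cox5a, Cox8a and Ndufa4), and with quantile normalisation 1 at 72 h. The 24 h calls were Cox5b (0.55 ± 0.14, SE; limma adjusted p = 0.0159), Cox6a1 (0.46 ± 0.14, adjusted p = 0.0373) and Ndufa4 (0.58 ± 0.17, adjusted p = 0.0361), now assigned to this complex despite its name. Ndufa4 was not called with the replicate number as a block (adjusted p = 0.0778), and each of the 3 was lost in 3 or more omissions of an array, with an adjusted p of up to 0.0819 for Cox5b and 0.127 for Cox6a1, both without control replicate 1, and 0.145 for Ndufa4 without 24 h replicate 2. Cox4i1, a regulatory subunit that binds ATP, differed by -0.02, 0.02 and 0.01 with SE of 0.08 to 0.09. Cox5a differed by 0.57 ± 0.16 at 12 h (adjusted p = 0.0602), 0.43 and 0.31.

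Several subunits of complex IV have tissue forms, and the muscle forms were dim. Cox6a2, Cox8b and Cox4i2, a form linked to low oxygen, read 2.17 to 2.63 on every array, and Cox7a1 read 3.76 to 5.65 with no call. Cox7c, a subunit that every tissue uses, read 3.50 to 4.23 on its brightest probe set, so neither its level nor its change could be judged from it. The common forms Cox6b1, Cox7a2 and Cox8a read 11.52 to 12.18, 11.40 to 12.17 and 7.75 to 8.69, with differences of at most 0.38 and no call. Without the 5 dim probe sets the medians of complex IV were 0.20, 0.43 and 0.24, against 0.04, 0.25 and 0.17 with them.

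Complex V, the ATP synthase, had 4 of 17 subunits (23.5%) called higher at each time, against 5.92%, 6.33% and 7.07% of the bright genes. Its medians were 0.21, 0.18 and 0.13. The catalytic-head genes Atp5a1 and Atp5b, which encode the alpha and beta subunits, were not called: Atp5a1 differed by -0.05, 0.17 and 0.18 with SE of 0.13 to 0.15, and Atp5b by 0.29, 0.18 and 0.09 with SE of 0.12 to 0.14. Atp5c1, the gamma subunit of the rotating stalk, was higher at 72 h by 0.50 ± 0.10 (SE; limma adjusted p = 0.00852), and its only other probe set, of mean 4.61, gave -0.52 (adjusted p = 0.143). Atp5h, the d subunit of the stator, was higher by 0.28 (adjusted p = 0.0426), 0.40 (adjusted p = 0.008) and 0.44 (adjusted p = 0.00257) at the successive times. Its controls in replicates 4 to 7 read 11.12, 11.11, 11.11 and 11.15 and its 12 h arrays 11.64, 11.39, 11.27 and 11.32, and the 12 h call was lost without 7 of 8 arrays in turn (adjusted p of up to 0.0921, without 12 h replicate 1).

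Atp5l, the g subunit in the membrane, was called at 12 h alone, by 0.36 ± 0.08 (SE; limma adjusted p = 0.0116), and held without any single array. Atp5k, the e subunit, was called at 24 h by 0.41 ± 0.09 (adjusted p = 0.00911), but differed by 0.10 against all 7 controls (adjusted p = 0.612) and was not called with the replicate number as a block (adjusted p = 0.064). Its other probe sets gave 0.50 and -0.02. Atp5d, the delta subunit, was called at 24 h by 0.31 (adjusted p = 0.0263), lost without 24 h replicate 1 (adjusted p = 0.0744) or control replicate 1 (0.103) or 2 (0.0709).

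Atp5g1, Atp5g2 and Atp5g3 encode the same mature subunit c, the proton-carrying ring of ATP synthase, with different import sequences. Atp5g1 read 10.88, 10.84, 10.58 and 10.81 at 12 h and 10.60, 10.47, 10.45 and 10.44 at 72 h, against 9.90, 10.16, 9.91 and 9.97 in control replicates 4 to 7. At 24 h it read 10.57, 10.60 and 10.26, against 10.12, 9.93 and 10.05. Treated and control arrays did not overlap at any time, and the 24 h replicate 3 was the nearest to its controls. The differences of Atp5g1 were 0.79 ± 0.09 (SE; limma adjusted p = 6.15e-05), 0.44 ± 0.10 (adjusted p = 0.01) and 0.51 ± 0.09 (adjusted p = 0.00248), each held without any single array.

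Its partner genes moved less. Atp5g2 differed by 0.11, 0.10 and 0.13 and was not called, and Atp5g3 was higher by 0.28 at 12 h (limma adjusted p = 0.0184) and 0.25 at 72 h (adjusted p = 0.0362). These Atp5g3 calls were lost without control replicate 7 (adjusted p = 0.0631 at 12 h and 0.113 at 72 h) and without 2 and 6 other arrays. The log2 ratio of Atp5g1 to Atp5g2 rose by 0.68 at 12 h and by 0.38 at 72 h, and that to Atp5g3 by 0.50 and 0.26. In each of these cases a two-sided exact permutation test gave p = 0.0286, the smallest that 4 against 4 arrays allow, and 0.107 after Benjamini-Hochberg adjustment over 15 such tests of paralogue ratios. At 24 h the changes were 0.34 (exact p = 0.1, the smallest possible with 3 against 3) and 0.25 (exact p = 0.2).

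**Figure D3:**
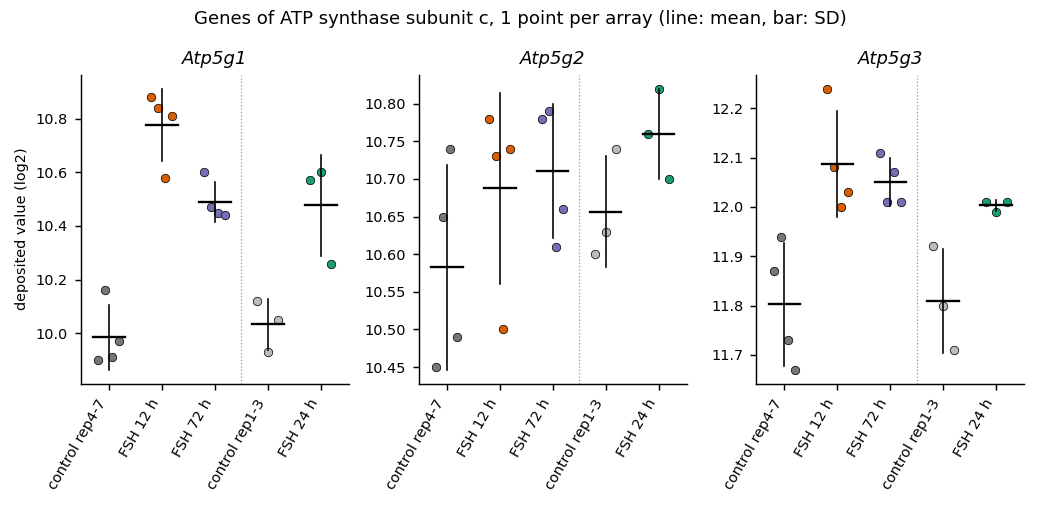
Deposited log2 values of Atp5g1, Atp5g2 and Atp5g3, the genes of ATP synthase subunit c, with 1 point per array, the mean as a line and the SD as a bar; the axes differ between panels. Atp5g1 on treated arrays (10.26 to 10.88) lies above all controls (9.90 to 10.16), whereas the groups of Atp5g2 overlap.

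Of the 6 assembly genes, Cox7a2l, which encodes a factor that joins complexes III and IV into supercomplexes, was the only one called. It read 9.18, 8.91, 9.12 and 9.07 at 12 h against 9.62, 9.48, 9.47 and 9.31, and 8.98, 8.97 and 8.87 at 24 h against 9.42, 9.39 and 9.05, with no overlap. At 72 h it read 9.37, 9.57, 9.48 and 9.31, within the range of the controls. It fell by 0.40 at 12 h (SE 0.09; limma adjusted p = 0.0157), and the 24 h difference was -0.35 ± 0.10 (adjusted p = 0.0399), while at 72 h it was -0.04 (adjusted p = 0.931). Its other probe sets gave -0.49 and -0.56 at 12 h and -0.59 and -0.54 at 24 h, all called. The 12 h call of the brightest probe set was lost without 12 h replicate 2 (adjusted p = 0.0511) or control replicate 4 (0.0539), and the 24 h call without 5 of 6 arrays in turn (adjusted p of up to 0.161, without control replicate 1) and with the replicate number as a block (adjusted p = 0.0701).

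Differences between times were few. Between 72 h and 12 h, 2 of 86 members were called, against 2.36% of all probe sets in either direction. These were Ndufv3, higher at 72 h by 0.62 (limma adjusted p = 0.0252), and Ndufa8, higher by 0.50 (adjusted p = 0.0422). The Ndufv3 difference was lost without 12 h replicate 3 (adjusted p = 0.095) or 4 (0.0888) or 72 h replicate 1 (0.0601), 2 (0.0846) or 4 (0.0576). The Ndufa8 difference was lost without 6 of 8 arrays in turn, with an adjusted p of up to 0.15, without 12 h replicate 3.

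With each time first set against its own controls, Sdhb rose more at 24 h than at 12 h, by 0.55 (limma adjusted p = 0.0486), the only member called, against 0.875% of all probe sets. Leaving out 1 array lost this call in 9 of 14 cases, control replicate 6 among them (adjusted p = 0.0912), with an adjusted p of up to 0.116, without control replicate 1. Between 24 h and 72 h, 0 members were called by limma, against 0.371% of all probe sets. An unadjusted p below 0.05 was found for 8 (5 higher and 3 lower at 24 h). Of all probe sets, 4.81% were higher and 6.5% lower by this measure, so the members showed no excess.

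The untreated controls also differed between the array sets. In control replicates 1 to 3, 15 members were called lower and 0 higher than in replicates 4 to 7, against 4.68% and 4.64% of all probe sets, and 3 members had an unadjusted p below 0.05 for a higher value. The median difference was -0.19, and -0.14 over the 6506 bright genes, of which 10.0% were called lower. The lower members were Atp5k (-0.54), Ndufb2 (-0.61), Ndufb8 (-0.53), Ndufb7 (-0.47), Ndufa3 (-0.37), Uqcrb (-0.57), Uqcr11, Cox4i1, Sdhc, Ndufb1, Ndufa5, Uqcrc1, Uqcrfs1, Atp5l and Atp5j2. Of these, Atp5k, Ndufa3, Ndufb2, Ndufb7 and Ndufb8 held without any single control, and 6 were called without control replicate 6.

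These controls are also the base of the 24 h differences, so both values are given side by side. Ndufb8 read 8.42, 8.45 and 8.51 in control replicates 1 to 3, 9.26, 9.22 and 9.35 at 24 h, and 9.16, 9.00, 8.82 and 8.99 in control replicates 4 to 7. Atp5k read 9.82, 10.08 and 9.99, then 10.54, 10.21 and 10.37, and 10.51, 10.48, 10.51 and 10.51 in the same order, so its 24 h arrays were near the other controls. Cycs, Ndufv3, Sdhb, Ndufa6 and Atp5g1 differed between the control sets by 0.16, 0.04, 0.02, 0.14 and 0.04, with no call. The array set and the biology of the animals in each set cannot be told apart.

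**Figure D4:**
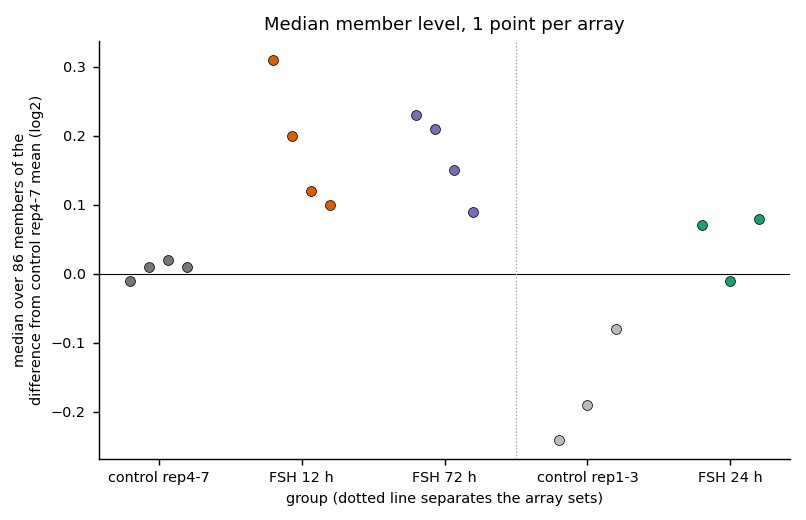
Median over the 86 members of the log2 difference from the mean of control replicates 4 to 7, with 1 point per array; the dotted line separates the array sets. The 12 h and 72 h arrays lie at 0.09 to 0.31 and control replicates 1 to 3 at -0.24 to -0.08, below the 24 h arrays at -0.01 to 0.08.

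Cox8c, Cox6b2 and Ndufaf3 varied more between arrays of a group than with treatment. Cox8c and Cox6b2 are testis forms of complex IV subunits, and Ndufaf3 is a complex I assembly factor. Cox8c read 7.88, 4.31, 9.27 and 8.47 in control replicates 4 to 7, 4.63, 4.60 and 7.94 in replicates 1 to 3, 7.66, 7.31, 7.19 and 5.20 at 12 h, 7.43, 3.61 and 8.87 at 24 h, and for the 72 h arrays 8.71, 8.41, 7.14 and 7.19. Its groups overlapped throughout, and its differences were -0.64, 0.91 and 0.38 with SE of 1.22 to 1.40. Cox6b2 ranged from 7.27 to 10.36 and Ndufaf3 from 5.98 to 9.10, also without a call, although Ndufaf3 passed at 24 h with the replicate number as a block (0.92, limma adjusted p = 0.0155).

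These members were low in the arrays where spermatocyte markers were low. The mean of 10 meiotic spermatocyte markers, Ldhc and Piwil1 among them, was 6.83 to 7.19 in 5 arrays and 7.79 to 8.94 in the other 13. The 5 were 12 h replicate 4, 24 h replicate 2 and control replicates 1, 2 and 5. Cox8c read 3.61 to 5.20 in the 5 and 7.14 to 9.27 in the 13, Cox6b2 7.27 to 7.85 and 8.76 to 10.36, and Ndufaf3 5.98 to 7.10 and 7.51 to 9.10, and no other member of the 86 separated these arrays in this direction. Cyct, the testis cytochrome c, which is not a member, ranged from 5.64 to 9.31 over the arrays.

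Within the 13 arrays, Pearson's r with the marker mean was 0.91 for Cox8c (permutation p = 5e-05, Spearman's rho 0.90, p = 0.00011), 0.82 for Ndufaf3 (permutation p = 0.00056, rho 0.72, p = 0.00662) and 0.77 for Cox6b2 (permutation p = 0.00205, rho 0.82, p = 0.00094). Adjusted over the 86 members, the p of r was 0.0043, 0.0241 and 0.0441, and that of rho 0.00946, 0.127 and 0.0404. Without the 2 arrays farthest from the median, r was 0.86, 0.70 and 0.55, and within the 10 of the 13 arrays of the larger set it was 0.91, 0.84 and 0.78. Without control replicate 6 it was 0.87, 0.70 and 0.66, and for deviations from the group means 0.93, 0.89 and 0.95. Cycs had r = -0.77 (permutation p = 0.00168, adjusted 0.0441; rho -0.65, p = 0.0179, adjusted 0.214), which was -0.67 without the 2 farthest arrays and -0.86 in the larger set. These 13 arrays pool treated and control groups, which differed in Cycs; its r was -0.61 for deviations from the group means and -0.64 without control replicate 6. The low cluster of 5 arrays and the 3 other arrays of the smaller set were too few for a value.

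**Figure D5:**
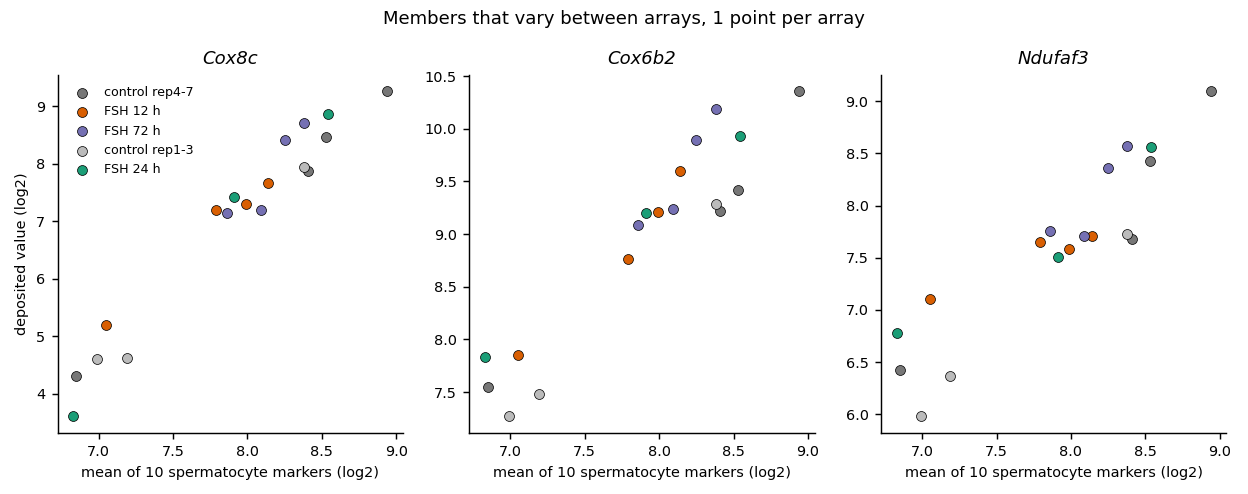
Deposited log2 values of Cox8c, Cox6b2 and Ndufaf3 against the mean of 10 spermatocyte markers, with 1 point per array and colours for the groups. The 5 arrays with a marker mean of 6.83 to 7.19 have the lowest values of each gene, and arrays of every group but 72 h are among them.

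Some markers of other cell types were also called on the treated arrays, and their part in the results was not tested. Of all probe sets, 3.2%, 6.1% and 3.63% were called higher at 12, 24 and 72 h, and 2.16%, 7.26% and 2.5% lower. No marker list was tested against these shares. Leydig markers had 2 of 6 called higher at 12 h and 3 at 24 h, Star and Cyp17a1 among them, and their summed level was 12.28 to 12.80 at 12 h, 12.46 to 13.03 at 24 h and 11.72 to 11.98 at 72 h, against 11.39 to 12.68 and 11.91 to 12.17 in control replicates 4 to 7 and 1 to 3. Of 11 Sertoli markers, 3, 3 and 4 were called higher and 1 lower at each time, with summed levels of 14.36 to 15.07 in treated and 14.50 to 14.98 in control arrays. Of 9 spermatogonial markers, 1, 4 and 2 were lower, and of 10 spermatocyte markers 1 was lower at 12 h. No spermatid or red cell marker was called, and of 7 peritubular myoid markers 2, 1 and 1 were higher. Of 6 fat markers 1, 2 and 1 were higher, Cidea at each time, with summed levels of 9.95 to 10.83, 9.17 to 9.64 and 9.38 to 9.78 against 8.44 to 8.99 and 8.62 to 9.13 in control replicates 4 to 7 and 1 to 3, while Lep and Ucp1 read 2.07 to 2.39 on every array. In all, 4 of the 6 fat markers had a mean below 3, so this summed level rests mainly on the few brighter ones. Of 8 macrophage markers 0, 0 and 2 were higher and 1, 1 and 0 lower. Of 16 skeletal and heart muscle markers 0, 2 and 1 were higher and 1, 2 and 1 lower, with summed levels of 8.01 to 8.83, 7.11 to 7.54 and 8.14 to 8.69, against 7.95 to 9.07 in control replicates 4 to 7 and 7.92 to 8.33 in replicates 1 to 3.

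Genes that work beside the chain were counted in lists chosen with earlier results of these data known. Of 10 measured carriers, porins and coupling genes, 4, 6 and 3 were called higher and 0 lower at 12, 24 and 72 h, with medians of 0.14, 0.45 and 0.13. Slc25a5, an exchanger of ADP for ATP across the inner membrane, read 11.62, 11.49, 11.02 and 11.34 at 12 h, 11.82, 11.94 and 11.50 at 24 h, against 10.17 to 10.60 in the controls, and its 72 h values were 12.07, 12.03, 12.07 and 11.98. Its differences were 0.91, 1.37 and 1.58 (limma adjusted p = 0.000444, 3.9e-05 and 4.1e-06). Slc25a4, its heart and muscle form, was higher by 0.56, 0.41 and 0.80, and the phosphate carrier gene Slc25a3 by 0.28, 0.48 and 0.29, each called.

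Of 20 tricarboxylic acid cycle and pyruvate dehydrogenase genes, 1, 3 and 3 were called higher and 1 lower at each time. Of the 6506 bright genes, 5.92%, 6.33% and 7.07% were called higher at the successive times, and 4.33%, 14.7% and 4.66% lower. Several counts of this paragraph lie near these shares, and none of these lists or the carrier list was tested against them. Cs, the citrate synthase, was higher by 0.29, 0.41 and 0.27, and Pdk4, an inhibitor of pyruvate dehydrogenase, differed by -1.43, -0.61 and -1.14, called at 12 h (limma adjusted p = 0.013) and 72 h (adjusted p = 0.043). Of 29 further assembly factors, 2 were higher at each time, Sdhaf1, which assembles complex II, by 0.70, 0.28 and 0.74, and Tmem126a by 0.61, 0.57 and 0.56, and 1, 2 and 0 were lower. Of 13 genes of coenzyme Q synthesis and other carriers, 0, 1 and 0 were higher and 1, 2 and 1 lower, and Coq8a, a kinase-like protein of coenzyme Q synthesis, differed by -2.33, -2.45 and -1.86, each called. Of 16 regulators of mitochondrial biogenesis, 0, 0 and 1 were higher and 1, 2 and 2 lower, and Ppargc1a, a coactivator of such genes, read 2.79 to 4.08 on every array with no call.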

How the data were processed

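Testis RNA was measured on 18 1-colour Affymetrix arrays. The authors deposited 1 table of log2 expression values per probe set, taken as log2 from their range of 1.04 to 15.16; RMA and GCRMA are both listed, without versions, per the submitters' processing notes, and which of them made the table is not given in the sources used here. No build is given for the probe sets. Of 22690 probe sets, 64 controls were left out.

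limma 3.58.1 (R 4.3.3; lmFit, eBayes, two-sided) fitted 5 group means over all arrays with 13 residual degrees of freedom, splitting the controls by array set; p-values were adjusted by Benjamini-Hochberg over 22626 probe sets. The fit was tested on simulated data. This main fit was unpaired. Deviations from a group mean depend on each other within the group. Same-numbered 24 h and control arrays deviated together (r = 0.179, 0.343 and 0.406, with 3 arrays per group), and differently numbered ones gave r of -0.355 to 0.068. The labels' replicate numbers were therefore taken as pairs in the replicate block fit alone (5 residual degrees of freedom), from the data and not the design. These arrays also shared their order of the spermatocyte marker mean. It was 7.91, 6.83 and 8.54 at 24 h and 7.19, 6.99 and 8.38 in control replicates 1 to 3, and its part was not tested. The number of arrays limits precision. Named are the core subunits, all members of paralogue groups, called members (up to 12 per comparison and direction) and each complex's largest rise and fall. Further called members, some pathway genes and the members that follow spermatocyte markers were named after their values were seen. The members and lists were chosen with earlier results of these data known. Alternatives were other controls, normalisations, filters, probe sets, array weights, a replicate block and leaving out each array. Correlations used 100000 permutations over arrays and were added after the data were seen.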

Additional observations from a re-analysis of the deposited data

Results flagged for a closer look

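Among 90 groups of 4 arrays tested for a value far from the others (30 called members in 3 groups), 3 were picked out, and chance alone picks about 1 in 20. Atp5h read 11.76 in 72 h replicate 2 and 11.49 to 11.51 in the others. Ndufa12 read 11.34 in 12 h replicate 1 and 10.79 to 10.86 in the others. Atp5k read 10.48 in control replicate 5 and 10.51 in the others.

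By a test of the difference between times in limma, 3 members were called. Ndufv3 was higher at 72 h than at 12 h by 0.62 (adjusted p = 0.0252) and Ndufa8 by 0.50 (adjusted p = 0.0422). Sdhb changed more at 24 h than at 12 h by 0.55 (adjusted p = 0.0486). The shares called of all probe sets were 2.36% and 0.875% in these 2 comparisons, near those of the members (2.33% and 1.16%). Leaving out 1 array lost the calls of Ndufv3, Ndufa8 and Sdhb in 5 of 8, 6 of 8 and 9 of 14 cases.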

How the results depend on the processing

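Cycs was called at each time under every alternative, as were Atp5g1, Atp5l, Ndufa6 and Ndufb7 at 12 h, Ndufb8 and Sdhb at 24 h and Atp5g1, Atp5h, Ndufa3, Ndufa6, Ndufa8 and Ndufv3 at 72 h; the causes of the changes below were not tested. With all 7 controls as 1 group, 22 members were higher at 12 h (median 0.26) and 25 at 72 h (median 0.28), and at 24 h the median was 0.11 and 5 were lower. Centring each array on its median, which moved the median of all probe sets between control sets from 0.03 to 0.11, gave 20 higher at 12 h (median 0.26), a 72 h median of 0.23, 1 call between 72 h and 12 h, 0 between 24 h and 12 h and -0.12 between control sets. It also moved the medians of complexes II, IV and V at 12 h to 0.20, 0.11 and 0.28 and of I, IV and V at 72 h to 0.23, 0.23 and 0.19. Quantile normalisation gave a 72 h median of 0.11, with 0.10, 0.14 and 0.06 for complexes I, IV and V, 0.15 for complex V at 12 h, 0 lower at 24 h, 1 call between 72 h and 12 h and 8 lower between control sets. Array weights gave 12 higher and 0 lower at 24 h, 24 higher at 72 h, 9 calls between 72 h and 12 h, 0 between 24 h and 12 h and 8 lower between control sets. The compared arrays alone gave 3 higher and 0 lower at 24 h and 7 lower between control sets. Leaving out probe sets with a mean under 5 gave 0 lower at 24 h and 0 between 24 h and 12 h. The most variable probe set per gene gave medians of 0.17 at 24 h, -0.05 for 24 h against 12 h, -0.01 for 24 h against 72 h and -0.24 between control sets, and turned Uqcrb (-0.17) and Atp5k (-0.02) at 24 h and Atp5c1 (-0.52) at 72 h.

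The replicate block gave 24 higher and 0 lower members at 24 h and changed no 24 h call beyond those given above. The 12 h and 72 h arrays shared only a number (r = 0.107, 0.13, 0.013 and 0.068), and differently numbered ones gave r of -0.229 to 0.311. These values give no ground for pairs. A replicate block there gave 4 calls, Ndufv3 (0.62, limma adjusted p = 0.0657) no longer among them. No block could be fitted for 12 h or 72 h against control replicates 4 to 7, which share 1 number.

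Leaving out 1 array at a time gave 8 to 10 higher and 0 to 1 lower at 12 h, with 8 without 12 h replicate 1 or control replicate 4 or 7. At 24 h it gave 15 to 25 higher, with 15 without control replicate 1, and 0 to 2 lower. The 72 h median was 0.13 to 0.19, lowest without 72 h replicate 2. Calls were 0 to 2 between 72 h and 12 h, 0 to 3 between 24 h and 12 h and 0 to 1 between 24 h and 72 h, the last without control replicate 2. Between control sets 6 to 10 were lower, with a median of -0.23 to -0.13. The number of arrays limits the precision.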
